A study of Caenorhabditis elegans with 2 samples.

Results

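In a ChIP-seq peak list of the cohesin subunit SCC-1, 613 of 4534 peaks (13.5%) were at least 2500 bp wide and scored below 3100, and these are called broad domains here. They were chosen by their width and by the score deposited with each peak, so width and score are given below as a description only. The comparison class consisted of the 3464 peaks narrower than 2500 bp with a score below 3100, called narrow peaks. The remaining 457 peaks scored 3100 or more. Of these, 437 shared the value 3100 exactly, so 3100 was treated as a ceiling above which peaks were not ranked. The word broad refers to this list alone, since most of the domains measured a few kilobases.

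The material came from whole adult Caenorhabditis elegans hermaphrodites of the strain fem-2(b245), with the genotype fem-2(b245)III and the stage given as germline-containing young adult. Worms were kept at 20 °C according to the series design, and the growth protocol describes gravid adults collected by sucrose flotation. The study comprised 1 ChIP library, made with a polyclonal rabbit antibody that was affinity-purified and raised against SCC-1, and 1 input DNA library from the same strain, both labelled as replicate 1 and made from chromatin fixed with 1% formaldehyde. Only the ChIP library has a peak list here, so no replicate error exists. Both libraries carry the fem-2 mutation, and no wild-type library was used here. Germline and somatic nuclei were extracted together, and a score cannot separate more cells with SCC-1 at a site from more SCC-1 per cell. Read numbers were not part of the list, so the depth behind each peak is unknown.

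Cohesin is a ring-shaped complex that embraces DNA, holds sister chromatids together from S phase to anaphase and shapes chromosomes by forming loops. SCC-1 is the kleisin subunit that closes the ring in its mitotic form, while worms use other kleisins, among them REC-8, in meiosis. FEM-2 is a phosphatase that promotes male fates, including sperm formation in hermaphrodites. The centres of worm autosomes are rich in conserved and widely expressed genes, and the arms are richer in repeats and recombine more in meiosis. The X chromosome is subject to dosage compensation in somatic cells of hermaphrodites, and germ cells transcribe few of its genes.

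Broad domains made up a small share of the peaks but a larger share of the bound sequence. They covered 2.24 Mb, which was 25.4% of all bases under peaks and 2.24% of the chromosomes. Narrow peaks covered 4.89 Mb and ceiling peaks 1.71 Mb. The median width of the broad domains was 3213 bp, with quartiles of 2759 and 4033 bp. In all, 453 of them were narrower than 4000 bp, 72 were at least 5000 bp wide and 5 were at least 10000 bp wide. Narrow peaks had a median width of 1281 bp. The lower limit of 2500 bp fell within a continuous range of widths. The narrowest domains inside it measured 2502 bp on V and 2503 bp on I, and the widest peaks outside it measured 2499 bp on IV and 2495 bp on III. Between 2500 and 2599 bp there were 47 domains, and between 2400 and 2499 bp there were 60 narrow peaks.

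The widest broad domain extended over 16404 bp on chromosome II, from 11964487 to 11980890 in the WormBase WS220 build, with a score of 2311. Its neighbours on both sides were narrow peaks, 1821 bp away with a score of 267 and 7005 bp away with a score of 88.1. The next in width, on III from 321364 to 333689, measured 12326 bp and scored 116, although a broad domain of 2674 bp that lay 1359 bp to its left scored 2248. On II, a domain of 11962 bp from 10541393 to 10553354 scored 2832. It followed a stretch of 90189 bp without a peak and was succeeded after 1745 bp by another broad domain. The 10 widest domains were located on I, II, III and IV, and 8 of them in chromosome centres. That is near the share of the class, since 425 of all 599 autosomal domains were in centres. V and X held only 80 and 14 domains in all. Scores of the 10 widest ran from 116 to 2832. This spread describes only what lies below the ceiling, since 64.9% of all peaks of 7500 bp or more were at it.

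The remaining 7 of the 10 widest were spread over 4 chromosomes. On I they spanned 10559720 to 10570714 (score 1284), 7078914 to 7088923 (2520) and 8906377 to 8914606 (947). On III they spanned 4430397 to 4440308 (1866) and 6566342 to 6574836 (2614). The widest domain of IV, from 7389263 to 7398051, scored 479 and stood 42500 bp from the nearest other peak, which was a ceiling peak. On II, a domain from 7892095 to 7900721 scored 567. V and X had narrower extremes. The widest domains of V measured 7627 bp (14837869 to 14845495, score 1983) and 7613 bp (13655217 to 13662829, score 1330), and the latter was flanked by broad domains on both sides, 303 and 23 bp away.

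**Figure D1:**
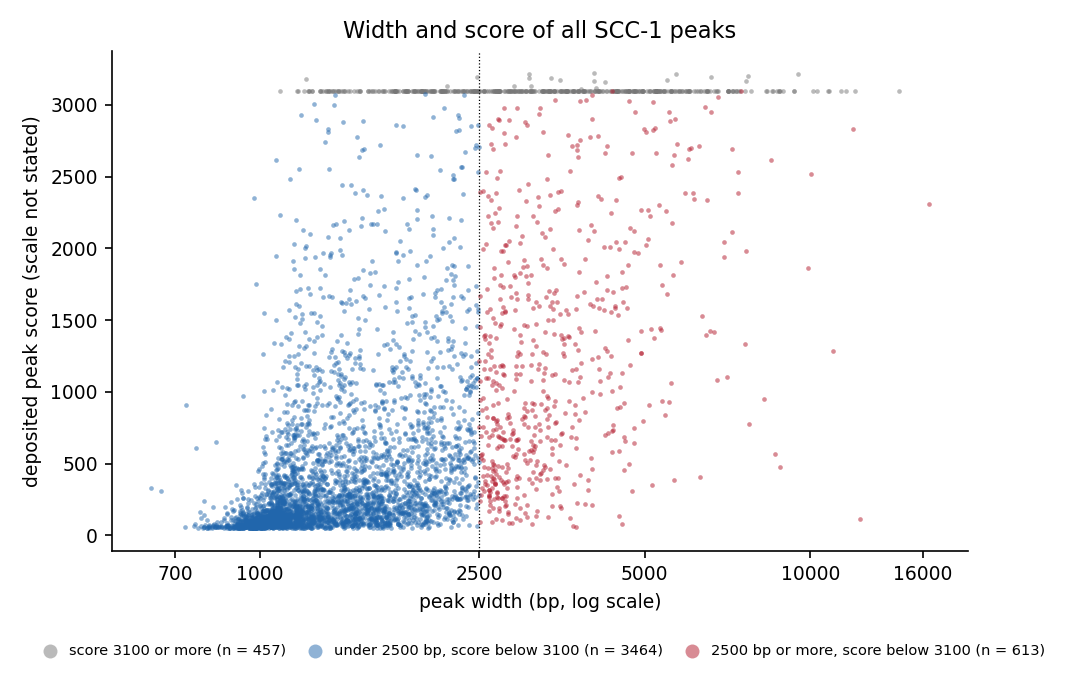
Each point is 1 of the 4534 peaks, with its width on a log axis and its deposited score on a linear axis. The 613 broad domains lie right of the dotted line at 2500 bp and below the row of ceiling peaks at 3100, and they span scores from 54.5 to 3098.

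Scores of the broad domains covered almost the whole range of the list. The median was 1156 with quartiles of 604 and 1885, against a median of 214 with quartiles of 99.8 and 525 for narrow peaks. This difference follows in part from the choice of members, since width and score are related in the list. Within the broad domains Spearman's rho between width and score was 0.33 over the 599 autosomal domains and 0.19 (II) to 0.39 (V) on the single autosomes. These coefficients describe peaks of 1 library and carry no p-value. The median score rose from 812 for domains of 2500 to 2999 bp and 1085 for those of 3000 to 3999 bp to 1561 at 4000 to 4999 bp and 2229 at 5000 to 7499 bp. The 13 domains of 7500 bp or more departed from that order with a median of 1330. A further 24 peaks of that width were at the ceiling and left out by the rule. These medians and coefficients thus describe only peaks below the ceiling.

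The wider a peak was, the more often it was at the ceiling and so outside the class of broad domains below it. Among all 914 peaks of at least 2500 bp, 301 (32.9%, 95% interval 29.9 to 36.1) scored 3100 or more. That share was 17.2% from 2500 to 2999 bp, 28.8% from 3000 to 3999 bp, 40.9% from 4000 to 4999 bp, 57.6% from 5000 to 7499 bp and 64.9% beyond. The domain nearest to the ceiling, on IV from 4743347 to 4750835, scored 3098 over 7489 bp. It was followed by one of 4360 bp on IV from 13093281 to 13097640 with 3095. On II, a domain from 11105048 to 11109051 scored 3068. The next in score were a domain on I from 3157220 to 3164014 with 3054 and one on III from 10051164 to 10054595 with 3032. Only 9 broad domains scored 3000 or more. Just outside the limit, 284 peaks of the same width class were tied at 3100 and 17 had larger numbers.

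A few broad domains had scores close to the lowest in the list. In total 41 scored below 250, with widths from 2508 to 12326 bp, and 8 scored below 100. The lowest, on III from 883252 to 886996, scored 54.5 over 3745 bp and stood 568 bp from a ceiling peak. The next were located on I from 8833484 to 8837186 with a score of 63.7, on III from 6376852 to 6379966 with 78.4 and from 7730138 to 7734680 with 78.6, and on II from 8762153 to 8764985 with 81.9. Of these 5 domains, 3 had a ceiling peak as their left neighbour, at 568, 287 and 13754 bp. Over the whole class, 493 of 613 broad domains (80.4%) had no ceiling peak as a neighbour on either side. For narrow peaks this was so for 2834 of 3453 (82.1%), and 5 domains are too few for a comparison. The domains scoring below 250 were found on every chromosome, about in proportion to its number of broad domains. They were 12 of 156 on III, 8 of 128 on I and 8 of 118 on II. On IV they were 6 of 117, on V 6 of 80 and on X 1 of 14.

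Chromosome III was the richest in broad domains and X the poorest. III, with 13.8% of the chromosome length, held 156 of the 613 domains (25.4%, 95% interval 22.04 to 29.1) and 20.1% of the narrow peaks. I held 128 domains, II 118, IV 117, V 80 and X 14. X accounted for 2.28% (1.25 to 3.80) of the domains and 5.98% (5.21 to 6.82) of the narrow peaks on 17.7% of the length. These 2 intervals do not overlap, but at like score they did. At scores of at least 500, X held 8 of 483 broad domains (1.66%, 0.718 to 3.24) and 33 of 918 narrow peaks (3.59%, 2.49 to 5.01). Below 500 it held 6 of 130 (4.62%, 1.71 to 9.78) and 174 of 2546 (6.83%, 5.88 to 7.88). III, at scores of at least 500, held 127 of the 483 broad domains (26.3%, 22.4 to 30.5). It also held 212 of the 918 narrow peaks, a share within that interval. Below 500, 22.3% (15.5 to 30.4) of the 130 broad domains were on III. Intervals here are exact Clopper-Pearson intervals that cover counting error only and treat each peak as independent.

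The same order appeared in density and in covered length. Broad domains numbered 11.3 per Mb on III, 8.50 on I, 7.75 on II, 6.70 on IV, 3.84 on V and 0.790 on X. They covered 4.36% of III, 3.04% of I, 2.94% of II, 2.36% of IV, 1.33% of V and 0.275% of X. Chromosome I, second in density of broad domains, also held 53.3 narrow peaks per Mb, against 50.5 on III.

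As a share of the peaks scoring below 3100, broad domains accounted for 15.04% (613 of 4077). The share was 18.3% (15.8 to 21.1) on III, 17.01% (14.3 to 20.03) on IV, 16.9% (14.2 to 19.8) on II and 13.8% (11.6 to 16.1) on I. It was lower on V with 11.6% (9.34 to 14.3) and lowest on X with 6.33% (3.51 to 10.4). Neighbours in this order had overlapping intervals throughout, whereas the interval of X lay below those of I, II, III and IV, and that of V lay below that of III. The order does not match peaks by score, and the broad share was 0.914% at scores between 50 and 100 and 59.2% between 2000 and 3000. At scores of at least 500, IV held 95 broad domains beside 141 narrow peaks, III 127 beside 212 and II 94 beside 170. I held 96 beside 218, V 63 beside 144 and X 8 beside 33. IV then stood above III, and X, with few peaks, stayed lowest. The median width of the domains themselves differed little, from 3069 bp on I and 3143 bp on V to 3387 bp on III. Their median scores on the autosomes lay between 1125 (I) and 1184 (III), and that of the 14 X domains was 760.

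On the autosomes, broad domains were concentrated in the chromosome centres to a greater degree than narrow peaks. Each chromosome was divided into 4 parts of equal length, of which the outer 2 were taken as arms and the inner ones as the centre. Only 174 of the 599 autosomal domains (29.0%, 25.4 to 32.9) had their midpoint on an arm, against 1427 of 3257 narrow peaks (43.8%, 42.1 to 45.5). The centres therefore held 2.44 times as many broad domains as the arms, and 1.28 times as many narrow peaks. The difference between the shares was -14.8 percentage points, and their intervals lie apart.

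This held on each of the 5 autosomes taken singly. The share of broad domains on arms was 26.3% on III, 28.75% on V, 29.7% on II, 30.5% on I and 30.8% on IV, a narrow range. That of narrow peaks was 39.04% on V, 42.3% on II, 43.02% on III, 46.9% on I and 47.1% on IV. The intervals of broad and narrow lay apart on I, III and IV. On II they were 21.6 to 38.8 and 38.2 to 46.4, and on V 19.2 to 39.95 and 35.1 to 43.1, and so overlapped. Seen from the other side, broad domains formed 18.8% (17.3 to 20.5) of the autosomal peaks below the ceiling in centres and 10.9% (9.39 to 12.5) of those on arms. In centres the share reached 22.5% on III and 21.1% on IV, and fell to 13.3% on V.

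**Figure D2:**
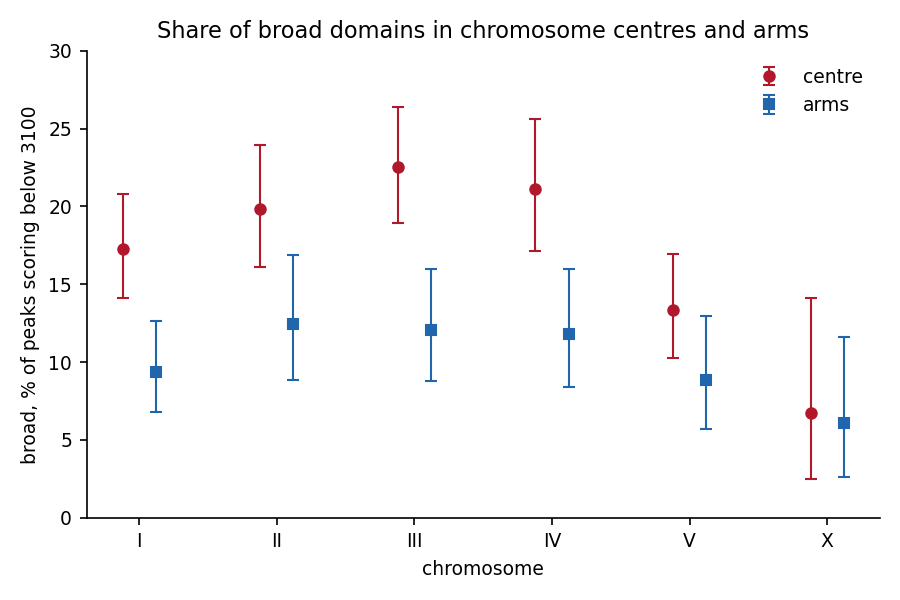
Points give the share of peaks scoring below 3100 that are broad domains, in percent, for the centre (circles) and the arms (squares) of each chromosome, and bars are exact 95% binomial intervals. On every autosome the centre lies above the arms, from 13.3% against 8.85% on V to 22.5% against 12.1% on III, while on X the values are 6.74% and 6.06%.

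In 10 equal parts of the autosomes, broad domains peaked in the fifth part. That part held 103 domains, 17.2% of the autosomal total, and the sixth and seventh held 94 and 88. The second part held 20 (3.34%), the ninth 34 and the last 31. Narrow peaks varied far less, between 7.98% (first part) and 12.1% (sixth part). The first part, with 35 domains, was richer than the second. This came mainly from III and V, whose first parts held 8 domains each against 2 and 1 in their second parts, whereas on I the order was the opposite (9 and 12).

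The arms of a chromosome were not alike. On II, 7 domains were located on the left arm and 28 on the right, and the second of its 10 parts held none. On III the counts were 13 and 28. On I the left arm held 26 and the right 13, of which 1 fell in the last of 10 parts beside 58 narrow peaks. On I, II and III narrow peaks leaned to the same side, with 221 and 155, 79 and 167, and 122 and 177. On IV the counts of 16 and 20 were nearly even although narrow peaks leaned to the left arm with 169 against 100. On V the counts were 13 and 10.

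**Figure D3:**
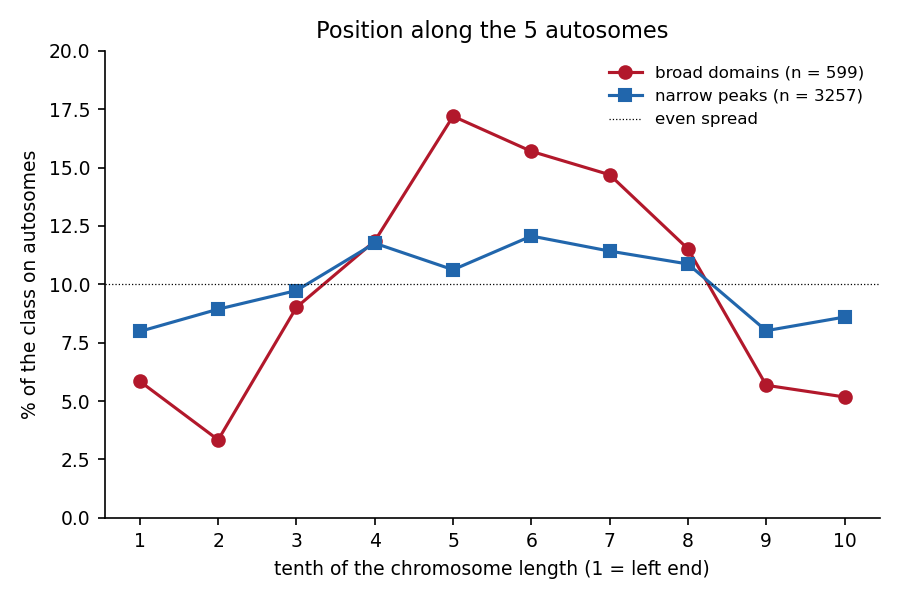
The share of autosomal broad domains (circles) and narrow peaks (squares) in each of 10 equal parts of the chromosome length is shown in percent, summed over the 5 autosomes. Broad domains range from 3.34% to 17.2% and narrow peaks from 7.98% to 12.1%, and the dotted line marks an even spread.

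Among peaks below the ceiling the share on arms declined with width, apart from a level stretch between 1500 and 2499 bp. Of autosomal peaks under 1000 bp, 57.3% were on arms, and of those from 1000 to 1499 bp, 43.6%. The share was 40.1% from 1500 to 1999 bp and 40.05% from 2000 to 2499 bp, the class just under the limit. Beyond the limit it was 33.6% (27.6 to 40.05) from 2500 to 2999 bp, 28.5% from 3000 to 3999 bp, 24.1% from 4000 to 4999 bp and 21.4% (12.5 to 32.9) from 5000 bp upwards. From 1000 bp upwards the intervals of neighbouring classes overlapped, with 35.4 to 44.9 just under the limit. Such overlap cannot tell a sudden change at the limit from a gradual one.

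The same direction was seen when broad and narrow peaks of like score were compared. Among autosomal peaks scoring from 500 to 999, 18.7% (12.6 to 26.2) of 139 broad domains and 44.4% (39.9 to 48.9) of 489 narrow peaks were on arms. From 2000 up to the ceiling the shares were 30.8% (23.0 to 39.5) of 130 and 59.3% (48.2 to 69.8) of 86. In the classes from 1000 to 1999 (33.98% and 46.1%), 250 to 499 (29.8% and 42.9%) and 50 to 249 (32.5% and 42.8%) broad domains were also the lower, with overlapping intervals. Taking scores of at least 500 together, broad domains were less often on arms than narrow peaks on all 5 autosomes, by the most on IV (27.4% against 51.8%) and by the least on V (30.2% against 37.5%). The intervals overlapped on II (18.0 to 36.7 and 36.0 to 51.3) and on V (19.2 to 43.0 and 29.6 to 45.9). On I they barely lay apart.

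Wide peaks at the ceiling were less central than the broad domains below it. Of 291 autosomal ceiling peaks of at least 2500 bp, 126 (43.3%, 37.5 to 49.2) were on arms, close to the share of narrow peaks. Within the ceiling class the share also declined with width, from 51.1% at 2500 to 2999 bp to 36.6% from 5000 bp upwards, but in each width class it stood above that of the domains below the ceiling. The intervals lay apart only from 3000 to 3999 bp, with 47.0% (35.9 to 58.3) against 28.5% (22.5 to 35.2). The difference was widest on II, where 27 of 45 wide ceiling peaks (60.0%) were on arms against 35 of 118 broad domains. It was smallest on V, with 35.4% against 28.75%.

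**Figure D4:**
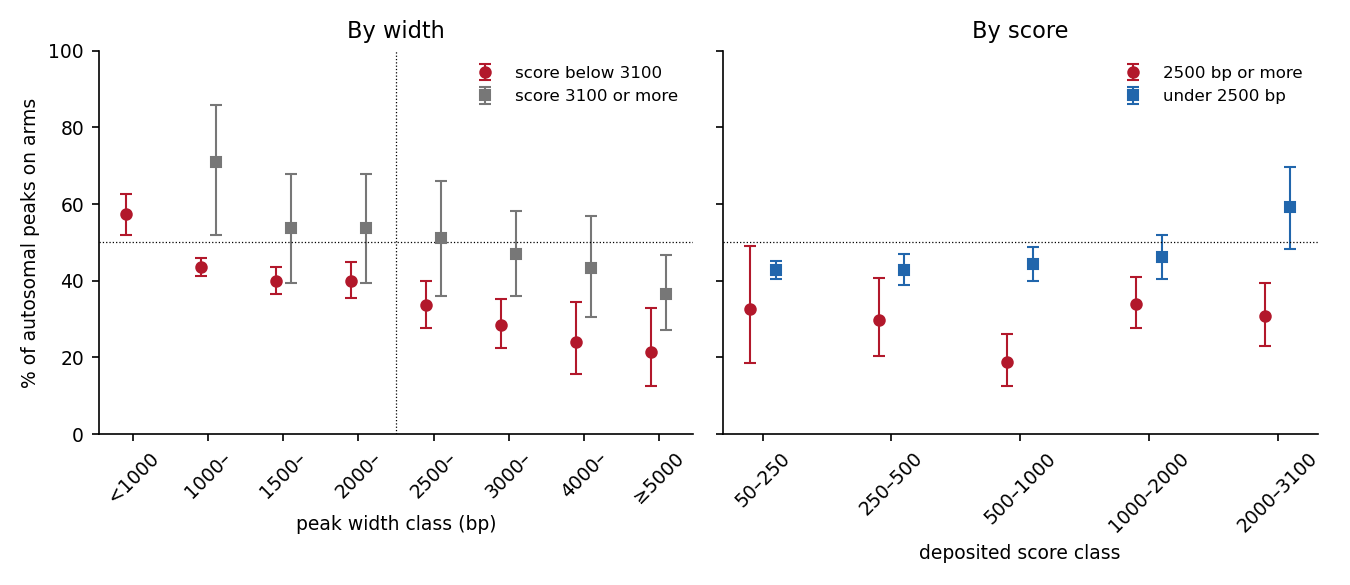
The left panel gives the percent of autosomal peaks on arms by width class, below the ceiling (circles) and at it (squares), and the right panel by score class for broad domains (circles) and narrow peaks (squares). Bars are exact 95% binomial intervals, the horizontal dotted line marks 50% and the vertical one the limit of 2500 bp. Below the ceiling the share declines from 57.3% under 1000 bp to 21.4% from 5000 bp upwards, and in all 5 score classes the broad domains lie lower.

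Windows of 1 Mb placed the densest groups of broad domains on III and II. The fullest window, on III from 9000001 to 10000000, held 20 domains beside 54 narrow peaks. It was followed by II from 11000001 to 12000000 with 19 and III from 6000001 to 7000000 with 19. In the latter window 29.2% of the peaks below the ceiling were broad. The autosomal windows held 7.34 ± 5.25 domains (SD, n = 80 windows), and those of X 0.824 ± 1.07 (SD, n = 17 windows). A complete lack of broad domains was found in 9 of the 17 windows of X and in 3 of 80 on the autosomes. These 3 were I from 14000001 to 15000000, II from 2000001 to 3000000 and V from 2000001 to 3000000, which still held 33, 24 and 27 narrow peaks. Across the 80 windows the counts of broad domains and narrow peaks had a Spearman's rho of 0.62, and those of broad domains and ceiling peaks one of 0.22. Within single autosomes the former was 0.07 on IV and 0.45 (III) to 0.66 (II) on the others, and the latter ran from -0.08 on II to 0.54 on V. All counts come from 1 library, and windows along a chromosome are not independent.

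The X chromosome carried 14 broad domains, of which 8 were on arms and 6 in the centre, so no preference for the centre could be seen there. The share on arms was 57.1% (28.9 to 82.3) and that of narrow X peaks 59.9% (52.9 to 66.6). The widest X domain, from 9883551 to 9890040, measured 6490 bp with a score of 2338, and no other peak lay within 68195 bp of it. A domain of 5019 bp from 3111654 to 3116672 scored 2021. Near it on the left arm were domains at 3074754 to 3077958 (score 2292) and 3089360 to 3092530 (score 396). The highest score on X, 2366, belonged to a domain of 2589 bp near the left end, from 58651 to 61239. A further domain near that end, from 174450 to 177506, scored 130. Another pair of adjacent domains was located on the right arm, at 14790372 to 14793177 (score 498) and 14815468 to 14819526 (score 1422). The remaining 6 had scores from 367 to 2050. Among them, the domain from 5352783 to 5355900 was the most isolated of all 613, with 72940 bp to its left and 72985 bp to its right before the next peak.

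Broad domains had another peak close to their edges more often than narrow peaks did. The median distance from the edge of a broad domain to the edge of the nearest peak was 1514 bp (95% interval of the median 1300.0 to 1779), against 2715 bp (2479 to 2922) for narrow peaks. A neighbour within 500 bp was found for 170 of 613 domains (27.7%, 24.2 to 31.5) and 648 of 3464 narrow peaks (18.7%, 17.4 to 20.05). Within 5000 bp the shares were 74.1% (70.4 to 77.5) and 64.6% (62.96 to 66.2), pooled over centres, arms and X. Measured between midpoints, the median distances were 4511 and 4491 bp, a ratio of 1.004. This ratio pools opposite directions in autosome centres and arms, given below. A wider peak has its edges nearer to its neighbours by construction, and which of the 2 measures fits the chromatin better was not tested.

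The edge distances differed between centres and arms for narrow peaks but hardly for broad domains. In the autosome centres the median edge distance was 1514 bp (1133 to 1849) for broad domains and 1955 bp (1743 to 2141) for narrow peaks, with overlapping intervals. On the arms it was 1432 bp (927 to 2098) and 3328 bp (2877 to 3609). Between midpoints the direction turned in the centres, where broad domains were further from the nearest peak, at 4511 bp (4206 to 4897) against 3837 bp (3661 to 4030.0), with intervals apart. On arms the midpoint distance was shorter for broad domains, at 4259 bp (3884 to 5065) against 5065 bp (4668 to 5410), with overlapping intervals. In centres, 75.3% (70.9 to 79.3) of broad domains and 73.1% (71.0 to 75.1) of narrow peaks had a peak edge within 5000 bp. These intervals overlap. On arms these shares were 73.6% (66.4 to 79.9) and 58.5% (55.9 to 61.1), with intervals apart. On X the 14 domains had a median edge distance of 10640 bp (1300.0 to 58638). Isolated domains also occurred on autosomes, and the one on IV from 6009698 to 6012937, with a score of 914, was 61216 bp from the nearest peak.

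**Figure D5:**
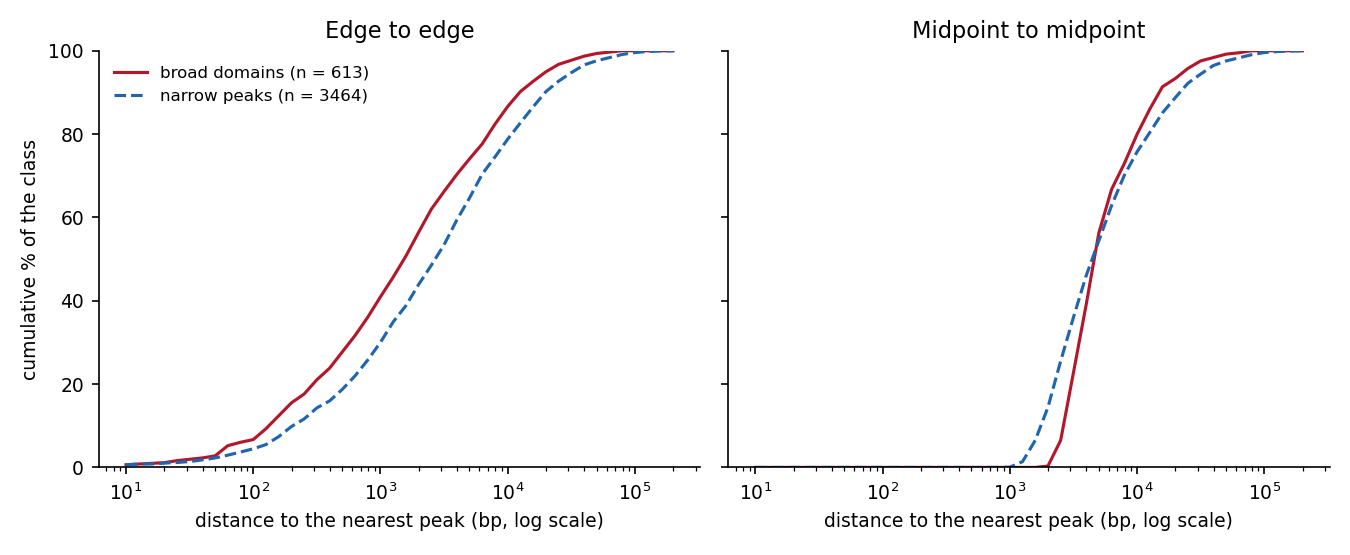
Curves give the cumulative percent of broad domains (solid) and narrow peaks (dashed) whose nearest peak lies within the distance on the log axis, measured between edges (left) and between midpoints (right). Between edges the broad curve runs to the left, with medians of 1514 and 2715 bp, and between midpoints the curves cross near their medians of 4511 and 4491 bp.

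The nearest peak of a broad domain was itself a broad domain in 126 of 613 cases (20.6%, 17.4 to 24.0), although broad domains form 13.5% of the list. For narrow peaks that share was 13.5% (12.4 to 14.7). In the autosome centres, where 17.2% of all peaks were broad, the shares were 23.1% (19.1 to 27.4) after broad domains and 16.9% (15.2 to 18.7) after narrow peaks. On the arms they were 13.8% (9.04 to 19.8) and 10.2% (8.71 to 11.9), with overlapping intervals. Domains that are each other's nearest peak count for both, which makes these intervals too narrow. Ceiling peaks were the nearest neighbour of 8.65% of the domains and 9.06% of the narrow peaks, and their share of the list was 10.1%. The score of the nearest peak had a median of 329 for broad domains and 316 for narrow peaks.

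Broad domains had a broad domain as a flanking peak more often than narrow peaks did, although most had none. Neither flanking peak was broad for 415 of 613 domains (67.7%, 63.8 to 71.4) and 2642 of 3453 narrow peaks (76.5%, 75.1 to 77.9). These shares pool centres, where 17.2% of autosomal peaks were broad, and arms, where 9.64% were. Adjacent broad domains count for both, and the flanks were not compared by region. In order along the chromosomes the broad domains formed 502 runs without another class of peak between them. Of these runs, 415 consisted of 1 domain, 66 of 2, 18 of 3 and 3 of 4. Runs of at least 2 took in 198 of the 613 domains. By chromosome these were 54 of 156 on III, 44 of 118 on II and 36 of 117 on IV. On I they were 33 of 128, on V 27 of 80 and on X 4 of 14, so the counts largely follow the number of domains. The 111 gaps between adjacent domains had a median of 2569 bp. They ranged from 9 to 92478 bp, so that being next in order did not always mean being close, and 36 of them were at most 1000 bp.

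The 3 runs of 4 domains differed in spacing and in score. On IV, domains covered 15.3 kb of a stretch of 17.1 kb from 7134079 to 7151198, with gaps of 803, 9 and 1040 bp, and their scores of 585, 404, 136 and 407 were all below the median of the class. On II, the stretch from 14387561 to 14414272 on the right arm held domains of 3234, 2626, 3770 and 4017 bp with scores of 1929, 1291, 2721 and 2903, all above that median. Its gaps measured 7687, 3672 and 1706 bp. On III, the run from 6139135 to 6172237 extended over 33.1 kb with scores of 808, 674, 1647 and 1102. Its last pair was only 305 bp apart, while 13787 bp separated the second domain from the third.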

How the data were processed

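The analysis used the peak list of 1 SCC-1 ChIP library. The input library, for which no peak list was used, entered no comparison. Peaks were called with MACS on WormBase WS220, per the file headers and the source column. BWA and ce10 are named in the submitters' processing notes. The calling threshold, tool versions, the control and any pooling of samples are not stated there. The score of each peak and its first and last base are values that the authors deposited. The scale of the score is not stated, so scores were used only to describe and divide peaks within this list.

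Positions count from 1. Chromosome length means the last base of the last peak listed, and peaks were placed by their midpoints. Windows of 1 Mb exclude the incomplete last window. The gene table at hand describes another build, so genes and sequences under the peaks were not analysed here. Shares carry exact Clopper-Pearson 95% intervals and medians distribution-free intervals from order statistics. Both cover counting error only. With 1 library no p-value was computed, since peaks are not replicates. Distances ran to the nearest peak of any class on the same chromosome.

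The members, classes and alternatives were chosen with earlier results of these data known. Regions were named by rule: the 10 widest, the widest 2 per chromosome, the 5 highest and 5 lowest scores, those nearest the limits, runs of 4, the 3 fullest windows and the 3 most isolated. The other X domains, empty windows and the 2 domains next to the left end of X were named after their values were seen, as were the divisions of arm share by width and by score. The procedures were tested on simulated lists. Computations ran in Python 3.11.15 (pandas 2.3.3, numpy 2.4.6, scipy 1.17.1), and figures were drawn with matplotlib 3.10.9.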

Additional observations from a re-analysis of the deposited data

How the results depend on the processing

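No paired analysis was possible because only 1 library has a peak list, and no replicate could be left out. Depth could not be varied. The number of broad domains depends directly on the width limit, with 1047 at 2000 bp and 373 at 3000 bp. The share of autosomal domains on arms became 33.6% at 2000 bp, 33.7% with peaks of any score, 50.3% with arms as the outer 2 of 3 parts and 23.01% without the outer 1 Mb at each end. Relative to narrow peaks it stayed lower under every alternative tried. The smallest differences were -10.8 percentage points at 2000 bp and -10.7 with any score. The share on X was 4.62% among peaks scoring below 500, an alternative added after seeing the data. The median edge distance of broad domains became 1912 bp with any score, 1982 bp for scores of at least 100 and 2098 bp with peaks closer than 200 bp merged. It was 4511 bp between midpoints and 8915 bp as the mean of both neighbours, which measure other quantities by construction. Its ratio to narrow peaks (0.558) turned to 1.004 between midpoints, with opposite directions in autosome centres and arms. It was 0.688 with any score, 0.743 for the mean of both neighbours and, added after seeing the data, 0.775 in autosome centres and 0.430 on arms. The share of domains with a broad nearest peak was 31.8% at 2000 bp, 13.9% at 3000 bp and 26.04% with any score, which change how many peaks count as broad, and 13.8% on arms. Its excess over narrow peaks was 7.04 percentage points. Over the alternatives it ran from 3.56 on arms to 9.46 at 2000 bp, and it was 4.46 with peaks closer than 200 bp merged. Of 84 alternative values for 9 results, 60 stayed within the interval of the reported value or, for the count, within 1.5 times it.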

Other observations

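A ceiling peak within 1000 bp was about as frequent beside broad domains (16 of 613, 2.61%, 95% interval 1.499 to 4.20) as beside narrow peaks (96 of 3464, 2.77%, 2.25 to 3.37). By score the order differed. Below 250, 3 of 41 broad domains (7.32%, 1.54 to 19.9) and 46 of 1900 narrow peaks (2.42%, 1.78 to 3.22) had such a neighbour. From 250 to 499 the counts were 5 of 89 (5.62%, 1.85 to 12.6) and 10 of 646 (1.55%, 0.745 to 2.83). From 500 to 999 they were 1 of 140 (0.714%, 0.0181 to 3.92) and 18 of 503 (3.58%, 2.13 to 5.60). From 2000 up to the ceiling they were 2 of 135 (1.48%, 0.180 to 5.25) and 6 of 92 (6.52%, 2.43 to 13.7). The intervals overlapped in each of these classes, and the division was chosen after the low-scoring domains beside ceiling peaks had been seen.

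On the autosomes, the broad domains on arms had a median score of 1354 and those in centres one of 1085. The order was the same on I, III, IV and V, with 1462 against 947 on I and 1393 against 911 on V, and opposite on II with 1085 against 1186. Narrow peaks had medians of 229 on arms and 216 in centres. The median width of broad domains was 3064 bp on arms and 3259 bp in centres. It was also smaller on the arms of I, II and IV, and larger on those of III (3619 against 3269 bp) and V (3172 against 3132 bp). These values were not tested.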
